A study of Canis lupus familiaris with 8 samples.

Results

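T cells and natural killer (NK) cells are the lymphocytes that recognise antigen through the T cell receptor or kill stressed cells through germline-encoded receptors. A list of 40 of their genes was followed through healing dog jaw bone. The members were taken by gene symbol from the array annotation, and 38 of the 40 had a probe set carrying that symbol alone, out of 15947 genes measured. The remaining 2, CD247, a signalling chain of the T cell receptor, and CD7, a T and NK surface receptor, were not analysed here. SKAP1 had 2 probe sets, and its brighter one was used.

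The study measured total RNA from alveolar bone, the bone in which the roots of the teeth sit, on 8 Affymetrix whole-transcript arrays from dogs, with 2 arrays in each of 4 groups. Group C was sound bone around the roots of upper premolars. Groups D2 and D6 were tissue that had regenerated in a surgical defect at the upper second premolar, removed along with adjoining bone. The number in each group name was taken as the weeks since surgery, 2 and 6. DT6 tissue was of that kind too, at 6 weeks, from sites where a tooth had also been protracted, that is, moved forward as in orthodontic treatment. No label ties an array to an animal or gives breed, age or sex. The p-values therefore reflect the spread among these arrays alone, and that spread may be technical.

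In the T cell receptor complex the antigen-binding chains are joined to CD3 chains, whose tails are phosphorylated by the kinase LCK and then bind the kinase ZAP70. CD4 and CD8 are coreceptors that bring LCK to the complex and mark helper and cytotoxic T cells. Cytotoxic T cells and NK cells kill with perforin and granzymes. In bone, T cells are known as a source of RANKL and of interferon gamma, which act on osteoclasts in opposite directions.

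All levels are the deposited log2 values of probe sets. A probe set is a group of short probes against 1 transcript, and its brightness depends on the probes as well as on the transcript, so levels are not ranked between genes. A difference is given as log2 ± its moderated standard error (SE) from limma, for 2 arrays against 2, and a gene "rose" or "fell" where its Benjamini-Hochberg adjusted p over all 15947 genes was under 0.05. The signals lay mostly in the lower part of the arrays: 33 of the 38 members had a mean below 6.67, the median over all genes, and the exceptions were CD3G, CD2, GATA3, TCF7 and LEF1. No detection call was used, so the files do not show how far the low values stood above background. In RNA from whole tissue, fewer cells of a type and less RNA per cell cannot be told apart. The 12 bone genes checked averaged between 9.94 and 10.78 in each array, but they did not move as one. MEPE, an osteocyte gene, fell by 2.29 in D2 and by 1.61 in D6 against C, the latter call ending without C array 1 (adjusted p = 0.132) or C array 2 (adjusted p = 0.0521). SOST, another osteocyte gene, fell by 1.33 in D2. COL1A1 stayed between 13.00 and 13.72 in all arrays. Some arrays stood apart: D2 array 2 and D6 array 1 were rich in oral epithelium transcripts, the D2 and DT6 arrays in airway and gland transcripts, and the DT6 arrays differed from each other in T and NK cell genes.

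Transcripts of 2 of the 38 genes, CD2 and CD4, were higher in the defect tissue than in sound bone, and the rest of the T and NK programme did not pass the threshold in any of the 5 comparisons. In D2 against C both rose, which is 2 of 38 members and 0 falls, where 8.4% of all genes passed, 5.66% rising and 2.74% falling. In D6 against C the same pair rose, where 1.76% of all genes passed, 0.985% rising and 0.771% falling. In DT6 against C CD4 alone rose, where 3.04% of all genes passed, 2.29% rising and 0.746% falling. At an unadjusted p under 0.05 there were 5, 6 and 6 members in D2, D6 and DT6, beside 23.8%, 16.4% and 17.6% of all genes. The median difference of the 38 genes was 0.13 in D2, 0.08 in D6 and 0.10 in DT6, beside −0.01, 0.01 and −0.01 over all genes. These comparisons share the C arrays, so they are not independent of each other.

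**Figure D1:**
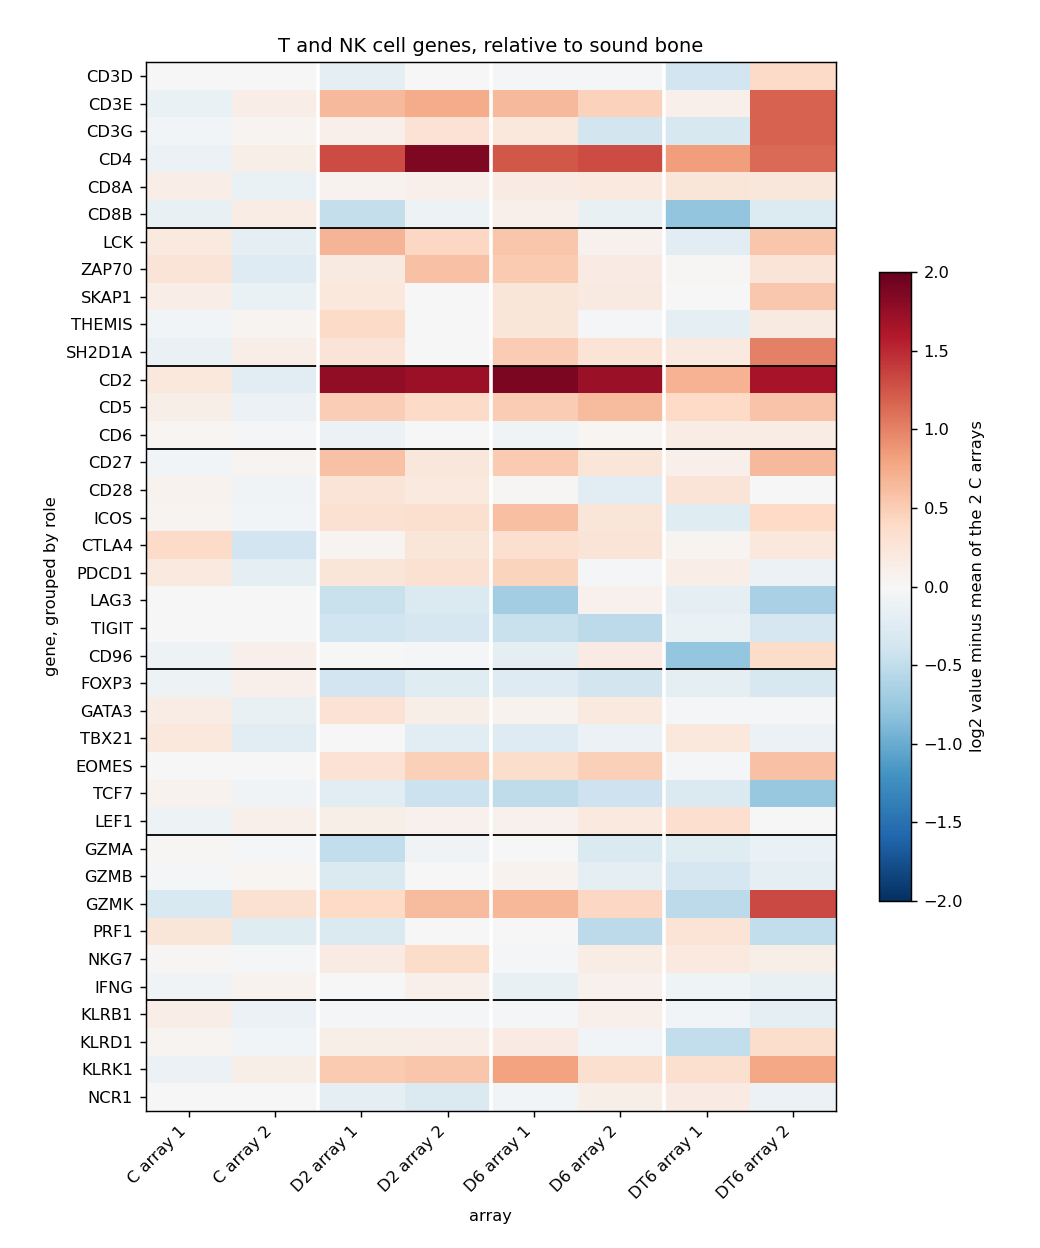
Log2 value of each of the 38 genes in each array (columns) minus the mean of the 2 C arrays, as colour from −2 to 2, with the genes grouped by role between black lines. CD2 and CD4 stand out in the 6 defect arrays, and DT6 array 2 is redder than DT6 array 1 for CD3E, CD3G, CD96 and GZMK.

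CD4, the helper T cell coreceptor, had log2 values of 5.18 and 5.40 in C, 6.59 and 7.15 in D2, 6.53 and 6.60 in D6, and 6.13 and 6.42 in DT6. Every defect array lay above both C arrays. CD4 rose in D2 by 1.58 ± 0.21 (2.99-fold, adjusted p = 0.0036), in D6 by 1.27 ± 0.21 (2.42-fold, adjusted p = 0.0253) and in DT6 by 0.99 ± 0.21 (1.98-fold, adjusted p = 0.0439). In dogs CD4 is also carried by neutrophils, and in other mammals by monocytes and macrophages.

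The rise of CD4 in D2 passed the threshold whichever array was left out, with differences from 1.30 to 1.86 and adjusted p from 0.00391 to 0.0435. In D6 it missed the threshold without C array 1 (1.16, adjusted p = 0.185), C array 2 (1.39, adjusted p = 0.0794), D6 array 1 (1.31, adjusted p = 0.132) or D6 array 2 (1.24, adjusted p = 0.0817). In DT6 it ended without C array 1 (0.87, adjusted p = 0.241), C array 2 (1.10, adjusted p = 0.105) or either D6 array (0.99, adjusted p = 0.059 and 0.0595). Leaving out DT6 array 2 gave 0.84 (adjusted p = 0.142), and the call was also lost with quantile normalization added (0.98, adjusted p = 0.0548).

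CD2, the adhesion receptor by which T and NK cells hold on to their partner cells, had values of 6.82 and 6.39 in C, 8.38 and 8.31 in D2, 8.48 and 8.33 in D6, and 7.30 and 8.25 in DT6. All 6 defect arrays lay above both C arrays, with DT6 array 1 the closest to them. CD2 rose in D2 by 1.75 ± 0.28 (3.35-fold, adjusted p = 0.0076) and in D6 by 1.80 ± 0.28 (3.49-fold, adjusted p = 0.0209), while its difference in DT6 was 1.18 ± 0.28 (adjusted p = 0.0635). In D2 it missed the threshold when C array 2 (1.53, adjusted p = 0.054) or D2 array 1 (1.71, adjusted p = 0.0608) was left out. In D6 it ended without C array 1 (2.02, adjusted p = 0.132), C array 2 (1.59, adjusted p = 0.0961) or D6 array 1 (1.73, adjusted p = 0.116). In DT6 it passed without DT6 array 1 (1.65, adjusted p = 0.00483).

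**Figure D2:**
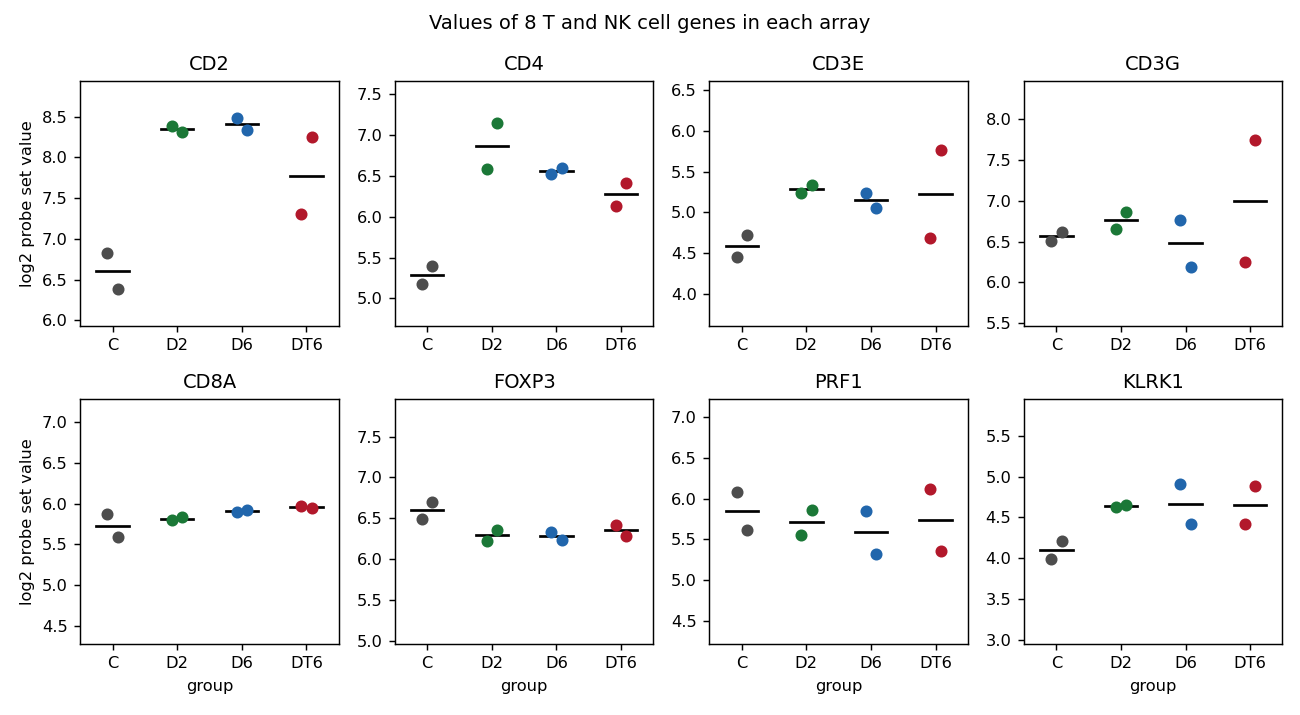
Log2 probe set value of 8 of the genes in every array, by group (points, 2 per group; black lines are group means), with axes of equal span. CD2 and CD4 are above sound bone in the 6 defect arrays, CD3E and CD3G differ widely between the DT6 arrays, and CD8A stays between 5.59 and 5.97.

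The transcripts of the receptor itself did not follow CD2 and CD4 past the threshold. CD3G, a CD3 chain, had values of 6.51 and 6.62 in C, 6.66 and 6.86 in D2, 6.19 to 6.77 in D6, and 6.25 and 7.75 in DT6. Its difference from C was 0.20 ± 0.41 in D2, −0.08 ± 0.41 in D6 and 0.43 ± 0.41 in DT6, with DT6 array 2 above every other array. CD3E, the chain most used to mark T cells, had values of 4.45 and 4.72 in C, 5.24 and 5.33 in D2, 5.24 and 5.05 in D6, and 4.68 and 5.77 in DT6.

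The 4 arrays of D2 and D6 lay above both C arrays for CD3E, and DT6 array 1 lay between them. The CD3E difference was 0.70 ± 0.31 in D2 (95% interval −0.01 to 1.40, adjusted p = 0.215), 0.56 ± 0.31 in D6 and 0.64 ± 0.31 in DT6. It passed the threshold in D2 when only the D2 and C arrays were fitted (0.70, adjusted p = 0.0488) or when DT6 array 1 was left out of the shared spread (adjusted p = 0.037), and likewise for DT6 array 2 (adjusted p = 0.0381). CD3D, the third CD3 chain measured, differed by −0.09 ± 0.24 in D2, with an interval from −0.64 to 0.46.

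CD8A and CD8B, the 2 chains of the cytotoxic T cell coreceptor, gave no call. CD8A differed from C by 0.08 ± 0.16 in D2, 0.18 ± 0.16 in D6 and 0.23 ± 0.16 in DT6, with an upper 95% bound of 0.58 in DT6. CD8B differed by −0.28 ± 0.23 in D2, −0.02 ± 0.23 in D6 and −0.53 ± 0.23 in DT6 (unadjusted p = 0.0476, adjusted p = 0.281). The 95% interval of CD4 in D2, 1.10 to 2.06, did not overlap that of CD8A, −0.27 to 0.44, and the difference between the 2 genes was not tested.

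Of the genes acting just below the receptor, LCK, ZAP70, SKAP1, THEMIS and SH2D1A, 0 of 5 passed in limma against C in any group. At an unadjusted p under 0.05 there were 0 as well, beside 23.8%, 16.4% and 17.6% of all genes in D2, D6 and DT6. LCK had values of 5.72 and 5.32 in C, 6.20 and 5.94 in D2, 6.08 and 5.61 in D6, and 5.31 and 6.08 in DT6. Its largest difference was 0.55 ± 0.28 in D2, where both arrays lay above both C arrays. SH2D1A, the adaptor of SLAM family receptors, differed by 0.59 ± 0.27 in DT6 (adjusted p = 0.295). THEMIS, needed for T cell selection in the thymus, differed by 0.20 ± 0.21 in D2 and by less elsewhere.

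CD5 and CD6, scavenger-type receptors that tune the receptor signal, differed from each other in their values. CD5 was 5.44 and 5.21 in C and between 5.70 and 5.95 in the 6 defect arrays, so its defect arrays did not overlap with sound bone. Its differences were 0.43 ± 0.16, 0.57 ± 0.16 and 0.49 ± 0.16 in D2, D6 and DT6, with unadjusted p of 0.0281, 0.00754 and 0.0152 and adjusted p of 0.149, 0.129 and 0.164. CD6, the next protein-coding gene to CD5 in the RefSeq annotation of UU_Cfam_GSD_1.0, spanned 0.26 log2 over all 8 arrays and differed from C by at most 0.14 ± 0.15.

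Among 8 costimulatory and inhibitory receptors 0 passed in limma, and 1 had an unadjusted p under 0.05 in D2 and in D6, TIGIT in both. Over all genes 23.8% and 16.4% had such a p there. PDCD1, the inhibitory receptor PD-1, had values of 6.74 and 6.36 in C, 6.79 and 6.85 in D2, 6.99 and 6.53 in D6, and 6.68 and 6.44 in DT6, which overlap outside D2. TIGIT, an inhibitory receptor of T and NK cells, was 5.27 and 5.29 in C and between 4.76 and 5.14 in the defect arrays. It differed by −0.37 ± 0.16 in D2 (adjusted p = 0.193), −0.48 ± 0.16 in D6 (adjusted p = 0.174) and −0.24 ± 0.16 in DT6.

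The activating receptors of that group gave small differences. CD27, a TNF receptor family member that sustains T cell survival, lay above C in all 6 defect arrays, with differences of 0.41 ± 0.22, 0.39 ± 0.22 and 0.38 ± 0.22. CD28, the main costimulatory receptor, differed by 0.23 ± 0.17, −0.11 ± 0.17 and 0.13 ± 0.17 in D2, D6 and DT6. CD28, CTLA4 and ICOS lie next to each other in the same annotation, and so do LAG3 and CD4. LAG3, an inhibitory receptor for class II molecules, differed by −0.36 ± 0.26 in D2 where its neighbour CD4 rose.

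The 6 transcription factors gave 0 calls in limma, with 0, 1 and 1 members at an unadjusted p under 0.05 in D2, D6 and DT6, TCF7 in both cases. The shares of all genes with such a p were 23.8%, 16.4% and 17.6%. LEF1, a Wnt effector of T cells that osteoblast-lineage and epithelial cells also use, had values of 7.97 and 8.17 in C, 8.19 and 8.16 in D2, 8.15 and 8.26 in D6, and 8.41 and 8.06 in DT6. Its groups overlapped throughout. TCF7, the related factor of resting and memory T cells, was 7.50 and 7.37 in C, 7.22 and 7.00 in D2, 6.92 and 7.02 in D6, and 7.14 and 6.67 in DT6.

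All 6 defect arrays lay below both C arrays for TCF7, with differences of −0.32 ± 0.18, −0.47 ± 0.18 (adjusted p = 0.235) and −0.53 ± 0.18 (adjusted p = 0.169). FOXP3, the factor of regulatory T cells, was 6.49 and 6.70 in C and 6.22 to 6.42 in the defect arrays, with differences of −0.31 ± 0.15 in D2, −0.31 ± 0.15 in D6 and −0.25 ± 0.15 in DT6. TBX21 and GATA3, factors of type 1 and type 2 helper cells, differed from C by −0.19 to 0.05 and by −0.04 to 0.20. EOMES, which is used by cytotoxic and memory cells, differed by 0.38 ± 0.22, 0.41 ± 0.22 and 0.28 ± 0.22.

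The list of killing genes and interferon gamma gave 0 calls of 6 in limma. It also had 0 at an unadjusted p under 0.05 in every comparison, beside 6.52% to 23.8% of all genes. GZMB, the main apoptosis-inducing granzyme, had values of 6.09 and 6.17 in C, 5.84 and 6.13 in D2, 6.20 and 5.94 in D6, and 5.79 and 5.94 in DT6. PRF1, the pore-forming perforin, differed by −0.14 ± 0.30 in D2 (95% interval −0.81 to 0.53), and its groups overlapped. IFNG, the type 1 cytokine interferon gamma, stayed between 3.32 and 3.56 in all 8 arrays. GZMK, a granzyme of memory cells, had the widest intervals, with 0.51 ± 0.50 in D2 (95% interval −0.61 to 1.64).

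Of 4 NK receptors 0 passed in limma, and 1, KLRK1, had an unadjusted p under 0.05 in each comparison with C. Such a p was found for 23.8%, 16.4% and 17.6% of all genes in D2, D6 and DT6. KLRK1, the activating receptor NKG2D of NK and cytotoxic T cells, was 3.99 and 4.21 in C and 4.42 to 4.91 in the defect arrays. Its differences of 0.54 ± 0.23, 0.56 ± 0.23 and 0.55 ± 0.23 had adjusted p of 0.194, 0.258 and 0.263. NCR1, the receptor NKp46 that marks NK cells, had values of 4.96 and 4.97 in C, 4.78 and 4.67 in D2, 4.91 and 5.08 in D6, and 5.13 and 4.84 in DT6. KLRD1, the next gene to KLRK1, differed by 0.13 ± 0.26 in D2, and KLRB1 lay between 2.10 and 2.42 in all arrays.

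**Figure D3:**
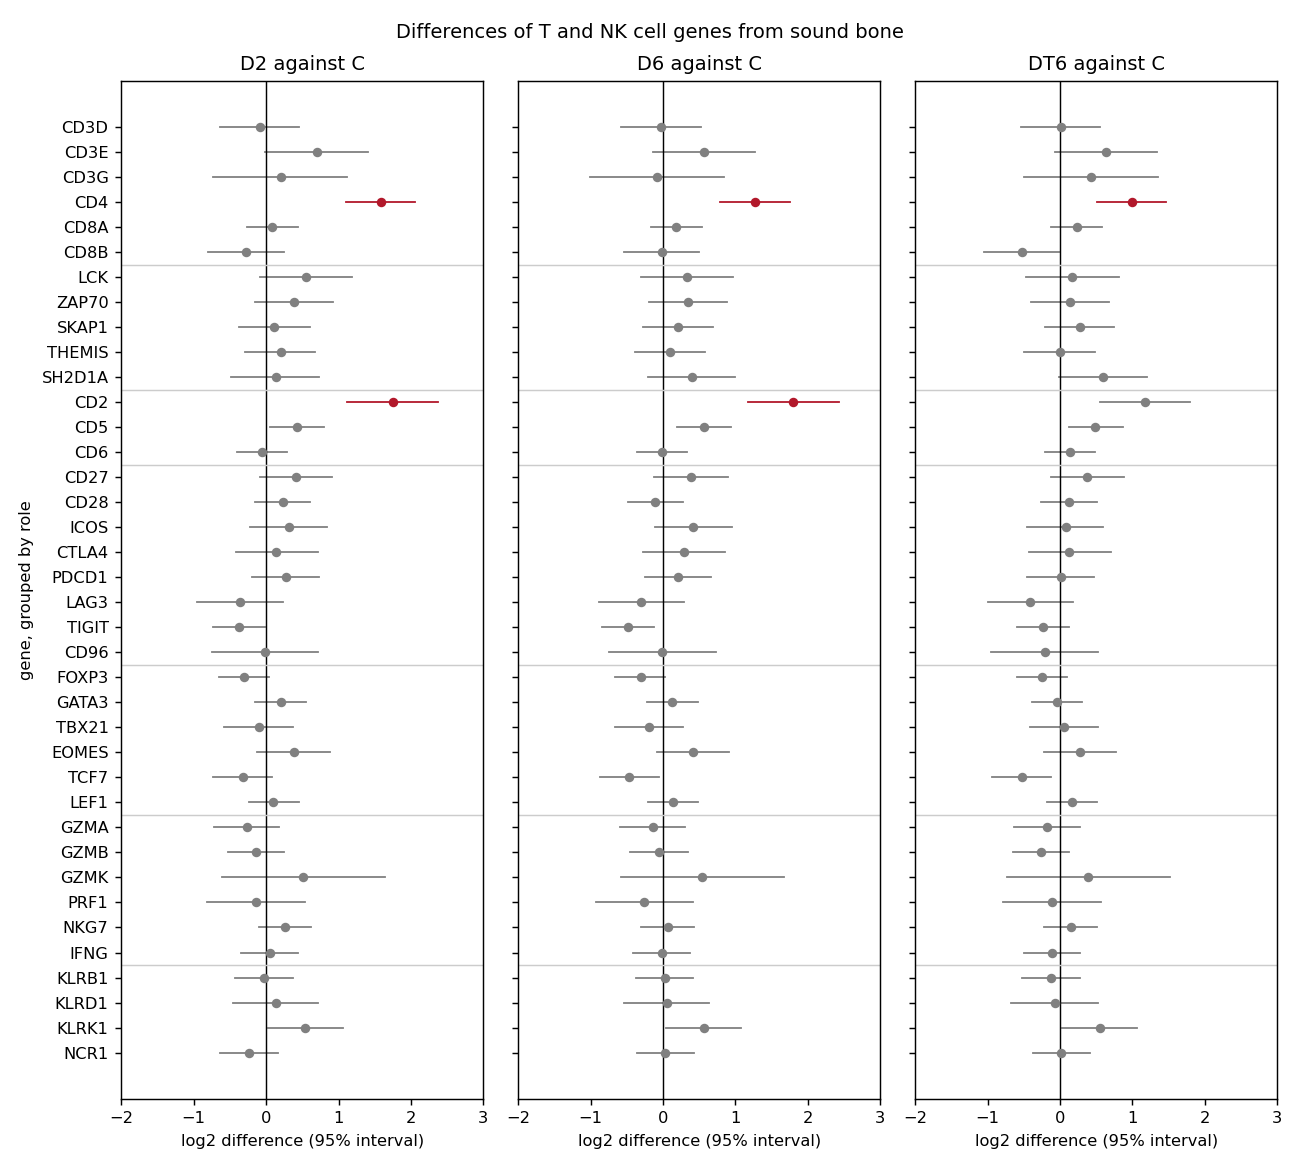
Log2 difference from C of each of the 38 genes in D2, D6 and DT6 (points) with its 95% interval (bars) from limma, red where the adjusted p over all genes was under 0.05. CD4 is red in the 3 panels and CD2 in D2 and D6, and most other intervals include 0.

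Over the 3 defect groups, 5 of 38 members, CD4, CD2, CD5, CD27 and KLRK1, lay above both C arrays in all 6 defect arrays, which is 13.2% of the members beside 12.8% of all genes. The 3 members below both C arrays in all 6 were TIGIT, FOXP3 and TCF7, 7.89% beside 10.5% of all genes. Both shares are near the background. In D2 alone 15 of 38 members had both arrays above both C arrays, 39.5% beside 27.9% of all genes, and 6 had both below, 15.8% beside 28.4%. In D6 the counts were 12 above and 4 below, 31.6% and 10.5% beside 25.8% and 22.7%. In DT6 the counts were 9 above and 8 below, 23.7% and 21.1% beside 22.1% and 19.5%.

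Between the defect groups 0 of 38 members passed in limma, and 0 had an unadjusted p under 0.05. D6 against D2 compares 6 with 2 weeks, but 9 of 12 airway and gland genes also fell in it. Time and that difference between the arrays cannot be told apart here. In D6 against D2 1.68% of all genes passed, 0.213% rising and 1.47% falling, and 7.88% had an unadjusted p under 0.05. The members' differences ran from −0.33 for CD28 to 0.27 for NCR1. Both D6 arrays lay above both D2 arrays for 5 members and below them for 3, beside 23.5% and 19.8% of all genes. CD4 differed by −0.31 ± 0.21 (95% interval −0.79 to 0.17) and CD2 by 0.06 ± 0.28 (−0.57 to 0.68).

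DT6 against D6 compares sites with and without tooth movement at 6 weeks, but 9 of 12 airway and gland genes also rose in it. Tooth movement and that difference between the arrays cannot be told apart here. In this comparison 1.52% of all genes passed, 1.32% rising and 0.207% falling, and 6.52% had an unadjusted p under 0.05. The differences ran from −0.63 for CD2 to 0.52 for CD3G. Both DT6 arrays lay above both D6 arrays for 4 members and below them for 6, beside 13.6% and 15.4% of all genes. CD2 was lower in both DT6 arrays than in both D6 arrays (−0.63 ± 0.28, adjusted p = 0.771), and so was CD8B (−0.51 ± 0.23, adjusted p = 0.802). The members' median difference was −0.07 with all arrays, 0.03 without DT6 array 1 and −0.21 without DT6 array 2.

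The 2 DT6 arrays differed from each other in these genes more than any other replicate pair. In DT6 array 2, 14 of 38 members were more than 0.5 log2 above DT6 array 1, 36.8% beside 9.52% of all genes, and 1, PRF1, was more than 0.5 below it, 2.63% beside 8.08%. In C, D2 and D6 the array 2 values were more than 0.5 above for 1 member each, 2.63% beside 6.22%, 3.39% and 3.24% of all genes. They were more than 0.5 below for 2, 0 and 2 members, beside 5.04%, 1.72% and 3.86% of all genes. GZMK differed by 1.85 between the DT6 arrays (3.35 and 5.20), CD96, a receptor of T and NK cells that shares a ligand with TIGIT, by 1.14, CD3E by 1.09 and CD2 by 0.95. CD3G was 6.25 in the first and 7.75 in the second.

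The difference was not shared by every member. CD8A differed by −0.02 between the DT6 arrays, IFNG by −0.06, FOXP3 by −0.15 and PRF1 by −0.76. Without DT6 array 1, differences from C were 1.65 for CD2, 1.18 for CD3E and CD3G, 1.32 for GZMK and −0.77 for TCF7. Without DT6 array 2 they were 0.70 for CD2, 0.09 for CD3E, −0.32 for CD3G and −0.53 for GZMK. The group then has 1 array, which is assumed to vary like the others, and these genes were picked out after their values were seen.

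**Figure D4:**
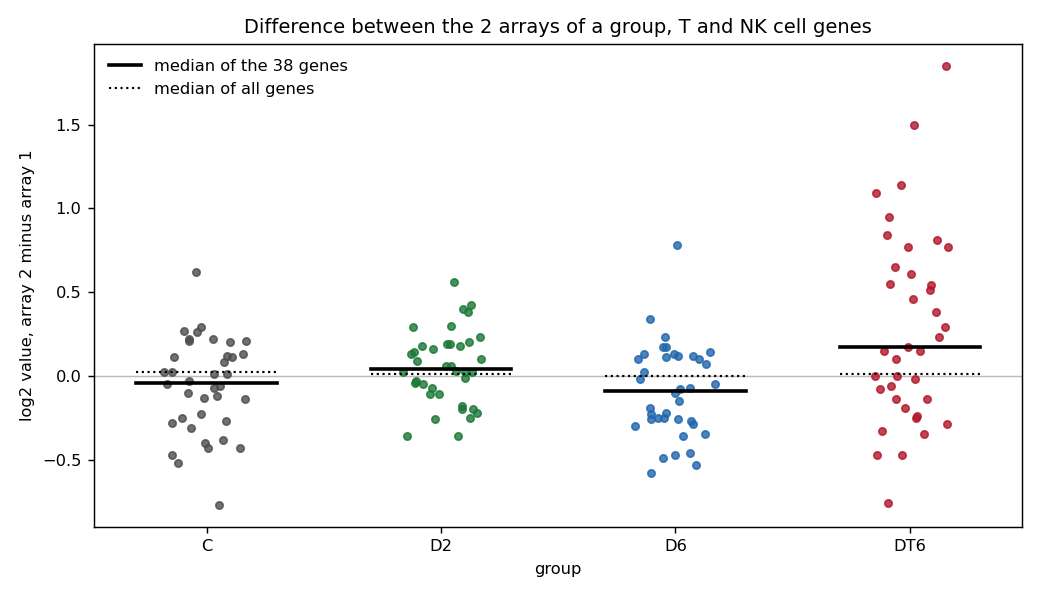
Difference between array 2 and array 1 of each group for the 38 genes (points; horizontal scatter is random), in log2, with the median of the 38 (solid) and of all genes (dotted). The DT6 points reach 1.85 and have a median of 0.17, whereas in C, D2 and D6 no point exceeds 0.78.

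Other cell lists moved with DT6 array 2. The 15 macrophage genes averaged 7.79 in DT6 array 1 and 8.52 in array 2, with a median difference of 0.88, and the 10 B and plasma cell genes 5.73 and 6.18. The bone list averaged 10.78 and 9.97, a gap to which DMP1, an osteocyte gene at 12.25 and 6.23, contributed most. ALPL (10.86 and 9.64), SP7 (8.17 and 7.34), BGLAP, COL1A1, COL1A2, SOST and PHEX were also lower in array 2. RUNX2, IBSP, SPP1 and MEPE were higher in array 2, IBSP only from 11.92 to 11.93. The airway and gland list stood at 9.17 and 8.96 and the oral epithelium list at 5.72 and 5.78. Their part in the difference between the DT6 arrays was not tested.

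Most macrophage genes, like CD2 and CD4, were higher in the defect groups than in C, which does not mean that they ordered the defect groups alike. Of 15 measured of 17 in that list, 9 rose in D2, 9 in D6 and 5 in DT6 in limma. These are 60%, 60% and 33.3% of the list, beside 5.66%, 0.985% and 2.29% of all genes rising. The list averaged 7.18 and 7.26 in C, 8.06 and 8.14 in D2, 8.36 and 8.26 in D6, and 7.79 and 8.52 in DT6. The myeloid receptor CD14 rose by 1.33 in D2 and 1.69 in DT6, and the lysosomal protein CD68 by 1.60 in D6 and 1.86 in DT6. Both lost calls without some arrays: CD14 in D2 without C array 1 (1.41), C array 2 (1.24), D2 array 1 (1.46) or D2 array 2 (1.19), and CD14 in DT6 without C array 1 (1.77) or C array 2 (1.61). CD68 in D6 lost its call without C array 1 (adjusted p = 0.157), C array 2 (adjusted p = 0.0807) or D6 array 1 (adjusted p = 0.111), and in DT6 without C array 1 (adjusted p = 0.0682). The part of these cells in the CD4 and CD2 values was not tested.

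Of 11 granulocyte genes 2 rose in D2 and in DT6 in limma, LTF and OLFM4, which glands also make. These are 18.2% of the list, beside 5.66% and 2.29% of all genes rising. In D6 0 rose, beside 0.985% of all genes. There 1 gene was lower at an unadjusted p under 0.05 in limma, beside 16.4% of all genes in either direction. OLFM4 lost its calls in D2 and DT6 when C array 1 was left out (adjusted p = 0.0763 and 0.0732), and in D2 also when D2 array 2 was (adjusted p = 0.0563). The list averaged 5.36 and 5.37 in C, 6.34 and 6.86 in D2, 6.40 and 5.36 in D6, and 6.28 and 5.92 in DT6. S100A8 and S100A9, which epithelium also makes, were 10.13 and 11.24 in D6 array 1 and 4.17 and 6.58 in D6 array 2, while MPO, the neutrophil peroxidase, stayed between 4.95 and 5.91 in all arrays. The part of granulocytes in the CD4 values was not tested. Of 10 B and plasma cell genes 0 passed in limma in D2, D6 or DT6, with 2, 0 and 3 at an unadjusted p under 0.05. Among all genes 23.8%, 16.4% and 17.6% had such a p. Of 9 dendritic cell genes 3 rose in D2 in limma, 33.3% of the list beside 5.66% of all genes rising. In D6 and DT6 0 rose, with 4 and 3 at an unadjusted p under 0.05 in limma, beside 16.4% and 17.6% of all genes. LAMP3 (1.16), a gene of mature dendritic cells, and IRF8 (0.72), a factor of myeloid cells, lost their D2 calls without either C array or either D2 array, with adjusted p from 0.0932 to 0.196 and from 0.0773 to 0.14. LAMP3 also did so with quantile normalization (adjusted p = 0.0512).

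Epithelial transcripts divided the arrays in another way. The 12 airway and gland genes averaged 4.87 and 5.08 in C, 9.56 and 8.71 in D2, 5.63 and 4.87 in D6, and 9.17 and 8.96 in DT6. The 16 oral epithelium genes averaged 7.71 in D2 array 2 and 8.82 in D6 array 1, against 5.24 to 5.78 in the other 6 arrays. Their part in the CD4 and CD2 values was not tested.

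Outside the members, 69 of 85 listed genes of T cell receptor signalling, cytokine receptors, chemokines, homing and lineage were measured, and 5 rose in D2, 2 in D6 and 4 in DT6 with 0 falls. These are 7.25%, 2.9% and 5.8% of the list, beside 5.66%, 0.985% and 2.29% of all genes rising. In either direction 8.4%, 1.76% and 3.04% of all genes passed. Their median difference was 0.26, 0.27 and 0.20, beside −0.01, 0.01 and −0.01 over all genes. The 24 genes of the receptor pathway held 3 of the calls in D2, 1 in D6 and 4 in DT6. FYB1, an adaptor that links the receptor to integrins in T cells and myeloid cells, had values of 5.27 and 5.37 in C, 6.48 and 6.34 in D2, 6.75 and 6.55 in D6, and 6.09 and 6.68 in DT6.

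FYB1 was above both C arrays in all 6 defect arrays and rose by 1.09 ± 0.21 in D2, 1.33 ± 0.21 in D6 and 1.06 ± 0.21 in DT6. In D2 it was not past the threshold without either C array or either D2 array (adjusted p from 0.0596 to 0.119), and in D6 without C array 1 (adjusted p = 0.159), C array 2 (adjusted p = 0.0799) or D6 array 1 (adjusted p = 0.135). In DT6 it ended without either C array (adjusted p = 0.184 and 0.103), either D2 array (adjusted p = 0.0564 and 0.0562) or DT6 array 2 (0.77, adjusted p = 0.0825).

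VAV1, an exchange factor of blood cells below antigen receptors, rose in D2 by 1.26 ± 0.24, and ITGAL, the alpha chain of the leukocyte integrin LFA-1, by 0.99 ± 0.23. Both calls ended without either C array or either D2 array, with adjusted p from 0.0588 to 0.108 for VAV1 and from 0.125 to 0.183 for ITGAL. CXCL10, an interferon-induced chemokine that draws activated T cells, rose by 1.48 ± 0.33 in D2 and 1.89 ± 0.33 in D6. In D2 it lost its call without C array 1 (1.07, adjusted p = 0.169), D2 array 1 (1.65, adjusted p = 0.0996) or D2 array 2 (1.30, adjusted p = 0.164). In D6 it did so without C array 1 (1.49), C array 2 (2.30), D6 array 1 (1.48) or either D2 array (1.89), with adjusted p from 0.0516 to 0.199, and with D6 and C fitted alone (adjusted p = 0.0548).

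In DT6 CXCL10 was 4.92 and 5.20, below both D6 arrays at 6.79 and 5.97, with a difference of −1.32 ± 0.33 from D6 that did not pass (adjusted p = 0.139). CD69, an early activation marker, differed by −0.83 ± 0.30 between the same groups (adjusted p = 0.523). None of the 69 genes passed in limma in DT6 against D6 or D6 against D2, with 5 and 0 at an unadjusted p under 0.05. Of all genes 1.52% and 1.68% passed, and 6.52% and 7.88% had such an unadjusted p. In D6 against D2 the largest differences were 0.64 ± 0.41 for PTPN22 and 0.45 ± 0.27 for CCL21, the chemokine of lymphatic vessels that attracts T cells.

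In DT6 against C the largest rise among these 69 genes was that of PTPN22, a phosphatase that restrains receptor signalling in T cells and is also made by other leukocytes, by 1.87 ± 0.41 (adjusted p = 0.0477). Its values were 4.97 and 5.68 in C, 5.73 and 6.37 in D2, 6.88 and 6.50 in D6, and 6.57 and 7.82 in DT6. The rise was no longer past the threshold without C array 1 (1.51, adjusted p = 0.272), C array 2 (2.22, adjusted p = 0.093) or either D2 array (adjusted p = 0.0602 and 0.0601). Without DT6 array 2 it was 1.24 (adjusted p = 0.136). It also missed the threshold without the variance trend (adjusted p = 0.0572), with robust eBayes (adjusted p = 0.0852) and with quantile normalization (adjusted p = 0.0558). RASGRP1, which activates Ras below the receptor, rose by 1.06 ± 0.21 in DT6. That call was lost without either C array (1.05 and 1.06), either D2 array (1.06) or DT6 array 2 (0.97). RASGRP1 also rose in D2, by 0.82 ± 0.21 (adjusted p = 0.0442 in limma), a call not followed through the fits that left out arrays. Its values were 5.14 and 5.15 in C and 6.37 and 5.77 in D6. NFATC1, a factor that osteoclasts use as well, rose by 0.86 ± 0.15 and lost its call without C array 1 (0.69, adjusted p = 0.122) and without DT6 array 2 (0.80, adjusted p = 0.0669), and was just outside the threshold when DT6 and C were fitted alone (adjusted p = 0.0501).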

How the data were processed

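Values are log2 probe set values that the authors deposited for 8 arrays. Per the labels, total RNA was labelled for Affymetrix whole-transcript arrays. For summarisation, normalization, log base and genome build the entry is: not given in the sources used here. Base 2 was judged from the range of the values. Array medians lay between 6.25 and 6.31, so no further normalization was applied. Of 22708 probe sets 16545 had 1 symbol, 370 several and 5793 none. The highest-mean probe set was kept per gene, leaving 15947 genes, and the 39 member probe sets kept their symbols against RefSeq UU_Cfam_GSD_1.0.

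All 8 arrays entered 1 limma 3.58.1 fit (R 4.3.3) on the 4 group means, with eBayes, a variance trend and 4 residual degrees of freedom. P-values are two-sided and were adjusted by Benjamini-Hochberg over the 15947 genes, separately for 5 comparisons, and 0.05 was the threshold. The fit was tested on simulated data with independent noise for each gene and array. Such data hold no noise shared by many genes of an array, so they do not show how stable the calls are. The number of arrays, 2 per group, limits the precision.

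The members, lists and tests were chosen with earlier results of these data known. Named outside the members are up to 4 pathway genes per comparison past the threshold with the largest difference (otherwise 2) and up to 2 genes per cell list. Values by array are given for members that passed and for the highest-mean member of each role. Other genes shown by array, such as CD3E, TCF7 and GZMK, were added after their values were seen. Alternatives were another eBayes, quantile normalization, a filter on dim genes, averaged probe sets, fits of 2 groups, a replicate block and arrays left out.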

Additional observations from a re-analysis of the deposited data

How the results depend on the processing

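With 2 arrays per group, single arrays decided most counts. Over the fits that left out 1 array, the members past the threshold numbered 1 to 3 in D2 against C, 0 to 2 in D6 against C and 0 to 6 in DT6 against C. All genes past it numbered 310 to 1940 (1339 with all arrays), 0 to 683 (280) and 127 to 719 (484), and 145 to 315 (268) in D6 against D2 and 154 to 318 (243) in DT6 against D6. The count of 0 came when C array 1 was left out of the limma fit, where 1986 genes had an unadjusted p under 0.05. Without D2 array 2 and D6 array 1 together, which are rich in oral epithelium transcripts, 0 members passed in D6 against C, with 3 at an unadjusted p under 0.05 (CD4 1.31, adjusted p = 0.0797, and CD2 1.73, adjusted p = 0.0773), and all genes past the threshold were 534 in D2 against C and 49 in D6 against C. Quantile normalization left 0 members in DT6 against C, with 5 at an unadjusted p under 0.05. Fitting DT6 and D6 alone gave 147 genes. The cause of these shifts was not tested. Fits that left out arrays or whole groups had fewer arrays, while quantile normalization left out none. The part of the number of arrays was not tested either.

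Of the 38 members, 5 passed under an alternative in a comparison where they did not pass in the fit of all 8 arrays that the report uses. They were CD3E, CD3G, CD2, TCF7 and GZMK. For CD2 that comparison was DT6 against C, and it rose in D2 and D6 with all 8 arrays. Over the fits that left out 1 array, the members' median difference ran from 0.09 to 0.16 in D2 against C, 0.04 to 0.13 in D6 against C and −0.01 to 0.20 in DT6 against C. It ran from −0.04 to 0.04 in D6 against D2 and −0.21 to 0.03 in DT6 against D6, so its sign turned in the last 3. The filter on dim genes kept 25 of the 38 members. The same numbers in different groups share no stated source, and the deviations of same-numbered arrays correlated between −0.26 and 0.19. With the replicate block the members past the threshold stayed at 2, 2 and 1 in D2, D6 and DT6 against C, and all genes at 1048, 188 and 373.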
